A study of Mus musculus with 4 samples.

Results

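The immediate early genes described here are 10 genes chosen by name, *Fos*, *Fosb*, *Junb*, *Egr1*, *Egr2*, *Egr4*, *Npas4*, *Nr4a1*, *Arc* and *Dusp1*, of 33981 genes counted in the series, and all 10 had enough counts to be tested in every comparison. Poly(A) RNA was sequenced from male C57BL/6J mice aged 3 to 5 months, in 24 libraries made from coronal brain tissue with the prefrontal cortex in it, 6 in each of 4 groups. All mice carried an osmotic pump under the skin for 28 days, which delivered saline (normotensive, NT) or 0.28 mg/kg/day of angiotensin II, a peptide that raises blood pressure (hypertensive, HT). On day 7 the prefrontal cortex was lit through the skull after injection of the light-sensitive dye Rose Bengal, which closes the vessels there (photothrombotic stroke), or was left unlit after the same surgery and dye (sham), and tissue was taken on day 28. The sham groups are called NT + Sham and HT + Sham, and the stroke groups NT + Stroke and HT + Stroke. In the study's methods, mice of this protocol ran the Barnes maze, a test of spatial learning, before tissue was taken, and all were perfused and euthanized in the morning.

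Immediate early genes are switched on within minutes of a stimulus, without new protein synthesis, by factors such as CREB and SRF that are already bound near their start sites and are activated by calcium and MAP kinase signals. In the cortex they are used as markers of recent neuronal firing, because synaptic activity induces them and their transcripts decay quickly. Most encode transcription factors that act on later genes (AP-1 proteins, EGR zinc fingers, *Npas4* and *Nr4a1*), while *Arc* encodes a synaptic protein and *Dusp1* a phosphatase that turns MAP kinases off.

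The sequence before the start site is shown for the 4 members that passed the test in a comparison of groups, because it holds the element that these genes are known to share. The CREB site TGACGTCA has the core TGACG, or CGTCA when read on the other strand. At least 1 core lay in the 250 bases before an annotated start of all 8 members with a RefSeq entry, against 19.8% of 27025 genes, with overlapping matches counted. The whole site was found in 1 member, *Dusp1*, against 1.77% of genes. The AP-1 site (TGACTCA or TGAGTCA) was found in none of the 8 against 5.16% of genes, and the SRF-binding CArG box in *Egr2* alone of these 8 against 1.62%. An EGR site was found in *Fosb* and *Nr4a1*, 2 of the 8, against 3.47% of genes. The TATA box (TATAAA or TTTATA) was found in *Fos* alone against 14.3%. Only these 250 bases were searched, so a site further from the start was not counted. Matches on both strands were counted, and a match is a description of the letters only. The sequences are from RefSeq on GRCm38.p6, written 5′ to 3′ on the strand of the gene and ending at the base before the start, with the core in capitals. They lie at chr12:85473640-85473889 (plus strand) for *Fos*, chr15:101266596-101266845 (plus) for *Nr4a1*, chr17:26508473-26508722 (minus) for *Dusp1* and chr19:4989972-4990221 (minus) for *Npas4*.
Fos: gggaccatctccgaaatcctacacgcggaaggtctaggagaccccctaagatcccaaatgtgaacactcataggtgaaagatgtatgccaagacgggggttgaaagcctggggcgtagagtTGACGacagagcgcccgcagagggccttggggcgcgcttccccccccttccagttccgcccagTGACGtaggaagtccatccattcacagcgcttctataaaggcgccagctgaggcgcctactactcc
Nr4a1: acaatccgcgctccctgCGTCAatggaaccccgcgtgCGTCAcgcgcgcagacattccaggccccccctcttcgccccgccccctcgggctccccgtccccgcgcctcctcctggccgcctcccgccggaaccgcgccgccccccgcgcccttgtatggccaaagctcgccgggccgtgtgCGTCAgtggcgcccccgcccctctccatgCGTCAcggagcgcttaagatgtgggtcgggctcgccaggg
Dusp1: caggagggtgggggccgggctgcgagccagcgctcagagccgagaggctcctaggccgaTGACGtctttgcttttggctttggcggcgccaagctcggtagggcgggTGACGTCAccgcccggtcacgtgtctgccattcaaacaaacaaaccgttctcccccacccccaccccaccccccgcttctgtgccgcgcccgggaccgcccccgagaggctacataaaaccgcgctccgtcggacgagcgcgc
Npas4: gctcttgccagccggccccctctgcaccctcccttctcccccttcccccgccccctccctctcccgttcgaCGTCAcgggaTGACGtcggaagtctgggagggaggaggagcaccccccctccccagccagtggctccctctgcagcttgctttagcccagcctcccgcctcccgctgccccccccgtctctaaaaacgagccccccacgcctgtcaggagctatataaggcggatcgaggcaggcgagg
*Fos* holds 2 cores, *Nr4a1* 4, *Npas4* 2 on opposite strands, and *Dusp1* 3, of which 2 overlap in the whole site. The window of *Nr4a1* lies inside the gene as the files give it (chromosome 15, 101254269 to 101274795), at a start downstream of its 5′ end. *Arc* and *Egr1* are named without a sequence.

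Each library held 15922919 to 24865998 counts on genes. Levels are given as CPM, counts relative to library size scaled by the TMM method (mean ± SD, n = 6), and differences as log2 fold changes from edgeR's quasi-likelihood test, with *P* adjusted by the Benjamini-Hochberg method for every gene tested and an adjusted *P* under 0.05 as the threshold. No source says outright that each library is a separate mouse, so a *P* value measures the spread between these libraries. Markers of excitatory cortical neurons were present in every library, with a summed level of 4040 to 6650 CPM over 10 genes. Some libraries stood apart from their labels. Over 7 macrophage genes, a cell type known to gather in ischemic lesions, libraries 1 and 6 of HT + Stroke had summed levels of 34.4 and 42.6 CPM, where the other 4 had 156 to 742 CPM. Library 6 of HT + Sham had 181 CPM, where the other 11 sham libraries had 16.1 to 27.4 CPM. These sums rested mainly on 1 gene, *Lyz2*, with a mean of 399 CPM in NT + Stroke. *Mrc1*, *Cd163* and *Pf4* had means of 7.07, 3.12 and 2.99 CPM there, so the sums do not show that the 7 genes agree. In HT + Stroke, libraries 1 and 6 also had the lowest summed microglia markers (255 and 249 CPM, group highest 500). Their astrocyte sums were lowest too (3144 and 3068 CPM, group highest 4580), and their oligodendrocyte sums were not (5663 and 5519 CPM, group lowest 5183). Library 6 of HT + Sham had the highest microglia and astrocyte sums of its group (284 and 3347 CPM). It had the lowest sum for excitatory cortical neurons (4753 CPM). Counts of members are therefore also given without these 3 libraries, a choice made after the data were seen. A comparison of 2 groups lost only those of the 3 that belong to its groups.

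Within NT + Sham, *Egr1* had the highest level per length, 47.1 ± 13.5 FPKM, followed by *Arc* (43.5 ± 25.8 FPKM) and *Junb* (37.7 ± 19.3 FPKM). *Nr4a1* (28.0 ± 7.37 FPKM) and *Egr4* (23.3 ± 6.93 FPKM) came next, and each of these neighbours differed from the next by less than the larger of their SDs. *Dusp1* was at 11.4 ± 3.61 FPKM, *Fos* at 6.05 ± 3.24, *Npas4* at 4.85 ± 1.75 and *Fosb* at 2.52 ± 0.377 FPKM. *Egr2* was lowest at 0.706 ± 0.492 FPKM, and only 18 to 96 counts per library lay behind it. *Egr1* was the highest and *Egr2* the lowest in all 4 groups. *Npas4* was above *Fos* in both hypertensive groups, at 6.47 ± 1.24 against 5.97 ± 2.28 FPKM in HT + Sham and 4.09 ± 0.685 against 3.12 ± 0.985 FPKM in HT + Stroke.

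The lowest group mean of all 10 members was in HT + Stroke, and NT + Sham had the highest mean of 8. The exceptions were *Npas4*, highest in HT + Sham, and *Egr2*, highest in NT + Stroke. From the highest to the lowest group the means differed by 2.14 times in *Arc*, 2.05 times in *Fos*, 1.85 times in *Nr4a1* and 1.25 times in *Fosb*. Most of these orders were not separable by the tests that follow. The groups overlapped for every member in all 5 comparisons of 2 groups that follow. Of all genes tested, the share with every library of the first group below every library of the second was 0.205% in HT + Sham vs NT + Sham, 6.83% in NT + Stroke vs NT + Sham, 0.1% in HT + Stroke vs NT + Stroke, 0.561% in HT + Stroke vs HT + Sham and 3.91% in HT + Stroke vs NT + Sham.

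**Figure D1:**
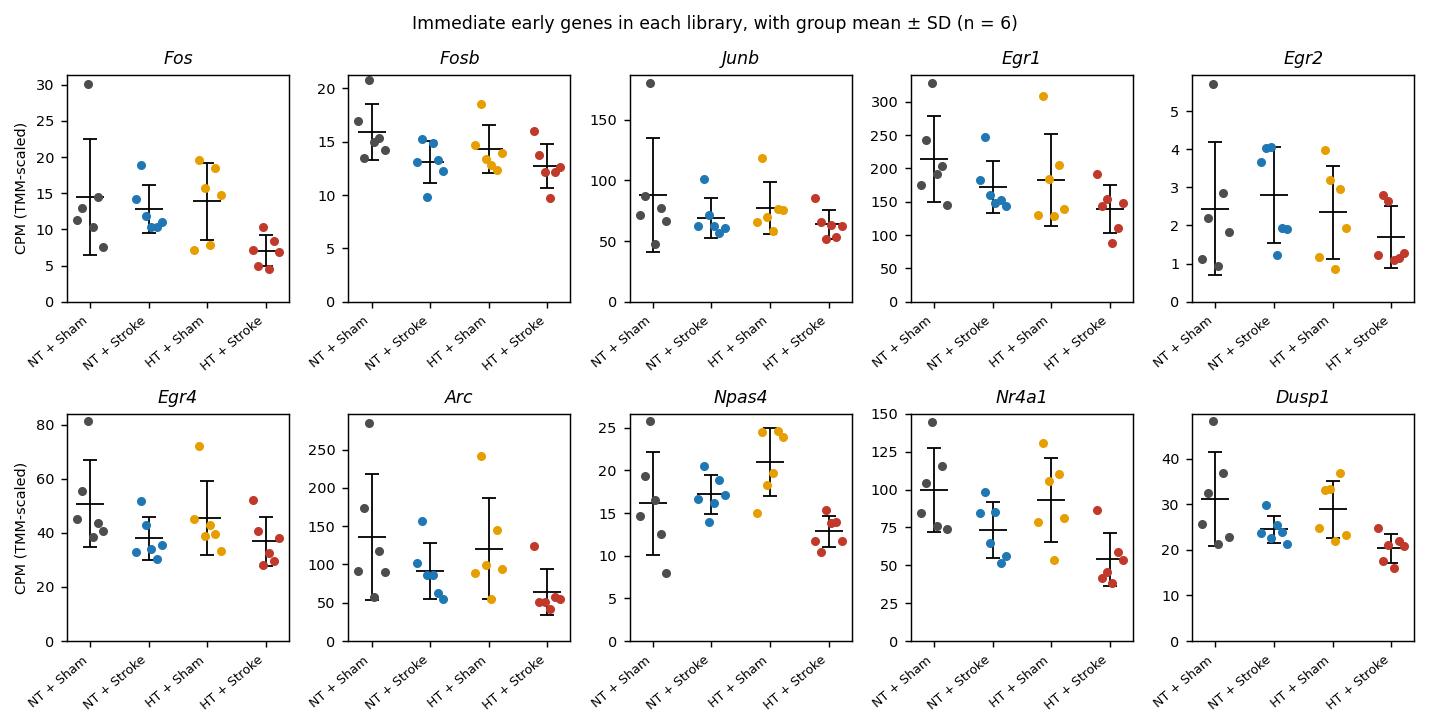
Level of each immediate early gene in CPM (linear axis from 0) in the 24 libraries, by group, with the group mean and SD (n = 6). HT + Stroke has the lowest mean in all 10 panels, and library 3 of NT + Sham is the highest of its group in all 10.

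Angiotensin II alone was compared in sham mice. None of the 10 members passed the test in HT + Sham vs NT + Sham, against 0.0% of 16581 genes, and none had an unadjusted *P* under 0.05, against 8.03% of genes. The values were lower in HT + Sham for 9 members, with a median log2 fold change of −0.13 (all genes −0.00). The exception was *Npas4*, with 0.40 (95% interval −0.08 to 0.87). These intervals were wide, reaching −1.14 to 0.83 for *Arc*.

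Stroke alone was compared in normotensive mice. No member passed the test in NT + Stroke vs NT + Sham, where 25.9% of 16835 genes did and 11.5% were called lower. The median log2 fold change of members was −0.31 (all genes −0.01), 8 of 10 were lower in NT + Stroke, and *Fosb* alone had an unadjusted *P* under 0.05, where 36.0% of genes did (log2 fold change −0.26, SE 0.113, adjusted *P* = 0.101). *Arc*, *Nr4a1* and *Egr4* had values of −0.54, −0.42 and −0.40. *Egr2* (0.21) and *Npas4* (0.12) were on the other side of 0, with intervals that included 0. As this is bulk RNA, fewer cells of a type and less RNA per cell cannot be told apart.

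HT + Stroke vs NT + Stroke asks what angiotensin II added after stroke. All 10 members were lower in HT + Stroke, with a median of −0.37 (all genes −0.01), and none passed the test, against 0.0% of 17008 genes. *Fos*, *Npas4* and *Dusp1* had an unadjusted *P* under 0.05, as did 7.23% of genes. *Fos* had the smallest *P* of all genes tested (log2 fold change −0.85, SE 0.198, 95% interval −1.27 to −0.43, adjusted *P* = 0.654) and *Npas4* was in place 12 (−0.42, SE 0.111). Markers of excitatory cortical neurons were on the other side of 0 here, higher in 10 of 10 with a median of 0.15. Olfactory bulb markers were lower in 9 of 9 (median −0.79) and macrophage markers in the 6 tested of 7 (median −0.32). None of these markers passed the test, and their part in the members' values was not tested beyond the fit with region scores given further on.

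Stroke in hypertensive mice was tested as HT + Stroke vs HT + Sham. *Npas4* fell (log2 fold change −0.69, SE 0.131, adjusted *P* = 0.0296), 1 of 10 members, against 0.645% of 16741 genes called and 0.102% called lower. All 10 members were lower in HT + Stroke, with a median of −0.46 (all genes 0.00). *Dusp1*, *Fos*, *Nr4a1* and *Arc* had values of −0.49, −0.96, −0.77 and −0.91 and adjusted *P* of 0.0901, 0.102, 0.119 and 0.239. With *Npas4* they made 5 members with an unadjusted *P* under 0.05, against 17.0% of genes. Olfactory bulb markers were lower in 8 of 9 here (median −0.73) and striatal markers higher in 10 of 10 (median 1.35), none past the test. Their part in the members' values was not tested beyond the fit with region scores. The call of *Npas4* ended without library 2, 3 or 4 of HT + Sham or library 2 or 4 of HT + Stroke (adjusted *P* 0.0524 to 0.0976 without 1 of them). It also ended with limma on log2 FPKM at either pseudocount and with the replicate number as a block, with 0 members called in each. The high sham libraries, 3 of NT + Sham and 2 of HT + Sham, were left out in a further alternative. In this comparison that removed library 2 of HT + Sham alone, a fit already counted above. Without the 3 libraries with unusual macrophage markers 3 members were called, *Npas4* (−0.58, adjusted *P* = 0.0323), *Nr4a1* (−1.03, adjusted *P* = 0.0179) and *Dusp1* (−0.63, adjusted *P* = 0.0195).

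Both treatments together were set against neither in HT + Stroke vs NT + Sham. *Nr4a1* (log2 fold change −0.86, SE 0.209, adjusted *P* = 0.0198), *Dusp1* (−0.59, SE 0.178, adjusted *P* = 0.0411) and *Fos* (−0.996, SE 0.307, adjusted *P* = 0.0465) fell, 3 of 10 members, against 14.7% of 16749 genes called and 6.37% called lower. All 10 were lower, with a median of −0.53 (all genes 0.01), and 7 had an unadjusted *P* under 0.05, against 29.6% of genes. *Egr1* (−0.60, adjusted *P* = 0.0669) and *Arc* (−1.07, adjusted *P* = 0.0979) came next. *Nr4a1* kept its call whichever library was left out (adjusted *P* 0.00308 to 0.0466), but lost it when all genes with at least 1 count were tested, where 0 members were called. Limma at either pseudocount left 1 member called. So did leaving out the high sham libraries, which in this comparison removed library 3 of NT + Sham alone. *Fos* lost its call in 10 of the 12 fits with 1 library left out, all but those without library 6 of NT + Sham or library 3 of HT + Stroke (log2 fold change −1.13 to −0.66 over the 12). *Dusp1* lost it in 9 of 12, all but those without library 4 or 6 of NT + Sham or library 1 of HT + Stroke (−0.67 to −0.43). With library size alone as the scaling 2 members were called, and *Fos* was not (−0.97, adjusted *P* = 0.0575). Without libraries 1 and 6 of HT + Stroke, those with unusual macrophage markers in this comparison, 4 members were called. They were *Nr4a1*, *Dusp1*, *Egr1* (−0.75, adjusted *P* = 0.0305) and *Arc* (−1.38, adjusted *P* = 0.0498), and *Fos* was not called (−0.99, adjusted *P* = 0.0938). This comparison shares its HT + Stroke libraries with those above and its NT + Sham libraries with the stroke comparison in NT mice, so the values are not independent.

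**Figure D2:**
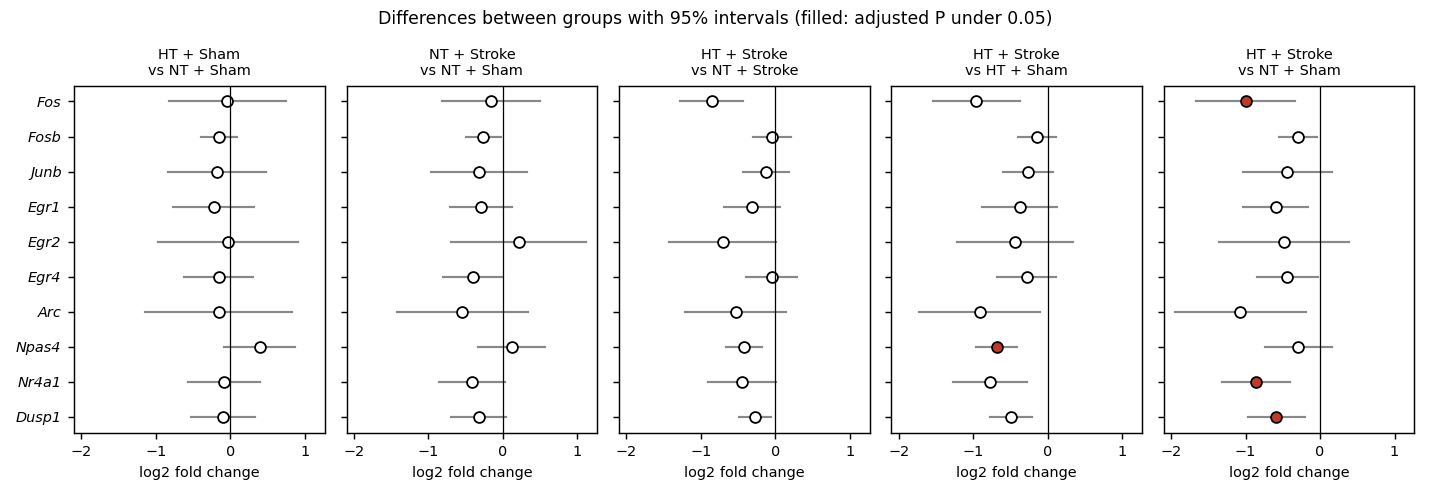
Log2 fold change of each member (first group minus second) in 5 comparisons, with 95% intervals from edgeR and filled points where the adjusted *P* was under 0.05. *Npas4* is filled in HT + Stroke vs HT + Sham and *Fos*, *Nr4a1* and *Dusp1* in HT + Stroke vs NT + Sham, and all 10 points lie below 0 in the 3 panels of HT + Stroke.

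The 4 groups were also fitted together. Over both pressures *Nr4a1* fell with stroke (log2 fold change −0.60, SE 0.159, adjusted *P* = 0.00726), as did *Dusp1* (−0.41, SE 0.115, adjusted *P* = 0.00903), 2 of 10 members, against 25.8% of 17608 genes called and 11.6% called lower. *Fos* (−0.57, adjusted *P* = 0.0524) and *Arc* (−0.74, adjusted *P* = 0.0533) came next, and 8 members had an unadjusted *P* under 0.05, against 36.2% of genes. Without the 3 libraries with unusual macrophage markers *Fosb*, *Egr4* and *Arc* joined *Nr4a1* and *Dusp1*, 5 members in all. Over both surgeries no member differed with angiotensin II, against 0.0% of genes, and *Fos* alone had an unadjusted *P* under 0.05 (−0.44), against 4.41% of genes. In the test of whether the stroke difference depended on angiotensin II, none passed, against 0.0% of genes, and 10.4% of genes had an unadjusted *P* under 0.05. *Npas4* was the 1 member among them (−0.81, SE 0.256, adjusted *P* = 0.322), so a stroke effect that differs between NT and HT mice was not shown for any member.

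Among the AP-1 members, whose proteins pair with one another to bind DNA, *Fos* (chromosome 12, 85473890 to 85477273) varied most. Its lowest, median and highest levels were 7.55, 12.1 and 30.1 CPM in NT + Sham and 10.3, 11.5 and 18.9 CPM in NT + Stroke. They were 7.09, 15.3 and 19.6 CPM in HT + Sham and 4.51, 7.07 and 10.3 CPM in HT + Stroke. The highest HT + Stroke library thus lay at the lowest NT + Stroke libraries, and every HT + Stroke library was below the median of each other group. *Fosb*, whose short protein form lacks a transactivating domain and accumulates with repeated stimulation, was steadier, at 15.95 ± 2.62 CPM in NT + Sham, 13.1 ± 1.94 in NT + Stroke, 14.3 ± 2.25 in HT + Sham and 12.8 ± 2.08 in HT + Stroke. It showed −0.05 (95% interval −0.30 to 0.21) in HT + Stroke vs NT + Stroke, where *Fos* showed −0.85. *Junb*, a partner of Fos proteins, was at 88.3 ± 46.9, 69.3 ± 16.5, 77.3 ± 21.1 and 63.8 ± 12.1 CPM in the same order of groups, and no comparison of it passed the test. *Junb* overlaps *Prdx2* on the other strand, which had 134536 counts in all against 33410, and whether strand was used in counting is not stated.

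The EGR members encode zinc finger factors that bind GC-rich sites. *Egr1* (chromosome 18, 34859823 to 34864984), the most abundant, was at 214 ± 64.6 CPM in NT + Sham, 172 ± 39.1 in NT + Stroke, 183 ± 69.3 in HT + Sham and 139 ± 36.2 in HT + Stroke. The HT + Stroke libraries spanned 88.0 to 192 CPM and all lay below the NT + Sham median of 198 CPM, but the ranges overlapped. *Egr4* was at 50.8 ± 16.1, 38.0 ± 7.96, 45.4 ± 13.7 and 36.8 ± 8.99 CPM in the same order of groups, so that the stroke groups lay close together (log2 fold change −0.05, 95% interval −0.39 to 0.29). *Egr2*, which is also needed for myelination of peripheral nerves, had 2.44 ± 1.75, 2.80 ± 1.25, 2.35 ± 1.22 and 1.69 ± 0.803 CPM. Its log2 fold change between the stroke groups was −0.71, with a 95% interval of −1.43 to 0.02. *Nab1* and *Nab2*, corepressors that bind EGR proteins, passed no test in these 5 comparisons.

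*Npas4* (chromosome 19, 4984355 to 4989971), a neuronal factor that responds to calcium entry and shapes inhibitory synapses, had a different order of groups. Its lowest, median and highest levels were 8.03, 15.6 and 25.7 CPM in NT + Sham and 13.9, 16.9 and 20.5 CPM in NT + Stroke. In HT + Sham they were 15.1, 21.8 and 24.6 CPM, and in HT + Stroke 10.4, 12.8 and 15.3 CPM. Only the highest HT + Stroke library reached the lowest of HT + Sham, and all 6 lay below the median of each other group. Its deviations within groups followed those of the other members least, with a median correlation of 0.43.

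*Nr4a1* (Nur77), an orphan nuclear receptor, was called lower in HT + Stroke vs NT + Sham and with stroke over both pressures. Its lowest, median and highest levels were 73.7, 94.5 and 145 CPM in NT + Sham and 51.7, 74.9 and 98.2 CPM in NT + Stroke. They were 53.6, 93.2 and 131 CPM in HT + Sham and 38.4, 49.4 and 86.3 CPM in HT + Stroke. Apart from library 1, at 86.3 CPM, every HT + Stroke library was at or below 58.8 CPM, under all NT + Sham libraries. *Arc* (chromosome 15, 74669083 to 74672570), whose protein acts at the synapse in receptor trafficking and forms capsid-like particles, had the largest log2 fold change in HT + Stroke vs NT + Sham of all members. *Arc* passed the test only under some alternatives, such as leaving out the libraries with unusual macrophage markers. Its lowest, median and highest levels were 57.1, 105 and 284 CPM in NT + Sham, 54.6, 86.2 and 157 CPM in NT + Stroke, 54.7, 96.7 and 242 CPM in HT + Sham and 42.3, 53.0 and 124 CPM in HT + Stroke. Without library 1, the HT + Stroke libraries of *Arc* lay between 42.3 and 57.8 CPM. *Dusp1* (chromosome 17, 26505590 to 26508519) had 31.2 ± 10.3 CPM in NT + Sham, 24.5 ± 2.96 in NT + Stroke, 28.9 ± 6.26 in HT + Sham and 20.4 ± 3.15 in HT + Stroke. Its HT + Stroke libraries spanned 16.1 to 24.9 CPM, and all 6 were below the medians of NT + Sham and HT + Sham, 29.1 and 29.0 CPM.

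The members moved together from library to library. Library 3 of NT + Sham was the highest of its group for all 10 members, with a median log2 ratio of 0.81 to the NT + Sham median. Library 2 of HT + Sham was the highest for 8 (0.67) and library 2 of NT + Stroke for 9 (0.36). In HT + Stroke, library 1 was the highest for 7 members (−0.08) and library 4 the lowest for 7 (−0.86). All 6 HT + Stroke libraries had a negative median, as did 5 of 6 NT + Stroke libraries and 3 of 6 in each sham group. Within groups the SD of log2 CPM was 0.76 for *Egr2*, 0.67 for *Arc*, 0.54 for *Fos* and 0.22 for *Fosb*, against a median of 0.19 over the 15486 genes whose mean reached 1 CPM. Once group means were taken out, the 45 pairs of members had correlations of 0.23 to 0.90 over the 24 libraries, with a median of 0.65, and *Arc* and *Nr4a1* were the closest pair. Without the high libraries of both sham groups the median was 0.45 (−0.15 to 0.88). These correlations share library, depth and dissection and are given as a description.

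**Figure D3:**
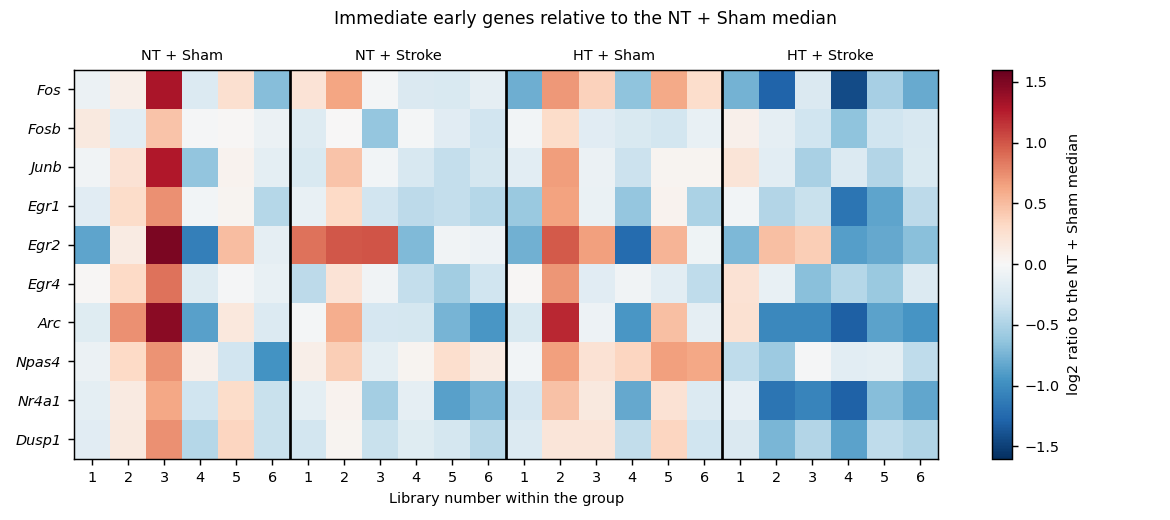
Log2 ratio of each member to its NT + Sham median (red higher, blue lower) in every library, with libraries numbered within groups. Library 3 of NT + Sham is above 0 for all 10 members, and library 6 of NT + Sham and libraries 4, 5 and 6 of HT + Stroke are below 0 for all 10.

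The genes whose deviations followed the mean of the members most closely were *1700016P03Rik* (Pearson r = 0.89 over 24 libraries), *Ier2* (0.87), *Tnfrsf25* (0.82), *Dnase1l2* (0.81) and *Plk3* (0.80). *Ier2* and *Plk3* are themselves immediate early genes. Without the high libraries of both sham groups *1700016P03Rik* stayed in place 1 (0.86), and *Ier2* was in place 9 (0.68). At the other end were *Dusp13* (−0.79), with a mean of only 0.538 CPM, and *Mettl25* (−0.75). Without those libraries *Dusp13* was in place 3 from that end (−0.72) and *Mettl25* in place 92 (−0.53). Of 38 other immediate early genes, *Dusp6* (0.79), *Csrnp1* (0.78) and *Ier5* (0.72) were also near the top of 17598 genes. Without the same high libraries *Dusp6* was in place 3 (0.80) and *Csrnp1* in place 7 (0.71), but *Ier5* fell to place 245 (0.49). *Atf3* (−0.03), *Zfp36* (−0.02), *Jun* (−0.07) and *Klf6* (−0.28) did not follow the members. Neither did *Amigo3* (−0.30), the lowest of the 38, nor *Fosl1* (−0.04), *Dusp5* (0.04) and *Klf4* (0.05).

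Of the other 38 immediate early genes, 7 rose and 5 fell in NT + Stroke vs NT + Sham (median −0.04), where 25.9% of all genes were called and 11.5% called lower. *Atf3*, a factor induced by injury, rose from 0.903 to 5.95 CPM (log2 fold change 2.73, SE 0.283, adjusted *P* = 3.02e-06), *Zfp36*, which speeds decay of inflammatory mRNA, rose by 0.91 (SE 0.135) and *Jun* by 0.28 (SE 0.070), while *Plk2* fell by 0.33 (SE 0.078). In HT + Stroke vs NT + Sham 2 rose and 4 fell, where 14.7% of all genes were called and 6.37% called lower. There *Zfp36* and *Atf3* rose (0.85 and 2.49), and *Dusp6*, a phosphatase of ERK, and *Nr4a3*, a relative of *Nr4a1*, fell (−0.55 and −0.74). None passed the test in HT + Stroke vs NT + Stroke, HT + Stroke vs HT + Sham or HT + Sham vs NT + Sham. In HT + Stroke vs NT + Stroke the 4 with the smallest *P* were *Dusp5* (−0.55), *Sik1* (−0.31), *Fosl2* (−0.31) and *Dusp6* (−0.29), each with an adjusted *P* of 0.654.

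Of 11 genes that activity induces later, 8 fell in NT + Stroke vs NT + Sham, against 11.5% of all genes called lower. None was higher past the test. *Bdnf*, a neurotrophin, fell from 21.0 to 13.0 CPM (log2 fold change −0.67, SE 0.108, adjusted *P* = 0.000149). *Pcsk1*, a prohormone convertase, *Nrn1* and *Crem* fell by 0.49, 0.47 and 0.26. In HT + Stroke vs NT + Sham 4 of 11 fell, among them *Pcsk1* (−0.67) and *Bdnf* (−0.60), against 6.37% of all genes called lower. In HT + Stroke vs NT + Stroke none passed the test, against 0.0% of all genes (median 0.02, where the members had −0.37). Of 31 genes for receptors, kinases and factors upstream of the members, 4 rose and 7 fell in NT + Stroke vs NT + Sham, against the same 25.9% of all genes, with *Grin2a*, an NMDA receptor subunit, at −0.43 and *Rps6ka1*, the kinase RSK1, at 0.63. *Creb1*, the factor that binds the CREB site, had −0.24 (SE 0.082, adjusted *P* = 0.654) in HT + Stroke vs NT + Stroke and −0.33 (adjusted *P* = 0.0794) in HT + Stroke vs HT + Sham. The 31 genes as a list were split there, with none called. In HT + Stroke vs NT + Stroke 15 were higher and 16 lower (median −0.01), 4 with an unadjusted *P* under 0.05, against 7.23% of all genes. In HT + Stroke vs HT + Sham 13 were higher and 18 lower (median −0.05), 8 with an unadjusted *P* under 0.05, against 17.0%.

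Neuronal and regional markers moved with the groups. Of all genes, 11.5% were called lower in NT + Stroke vs NT + Sham and 6.37% in HT + Stroke vs NT + Sham. All 10 markers of excitatory cortical neurons fell in NT + Stroke vs NT + Sham (median −0.50) and 5 of 10 in HT + Stroke vs NT + Sham (median −0.28), where the members had −0.31 and −0.53. Their summed level was 5928 to 6217 CPM in NT + Sham, 4040 to 5083 in NT + Stroke, 4753 to 6650 in HT + Sham and 4261 to 5978 in HT + Stroke. Markers of striatal projection neurons, 10 genes, summed to 424 to 1804, 514 to 2362, 371 to 1219 and 932 to 2913 CPM in that order. All 10 were higher in HT + Stroke than in HT + Sham (median 1.35, none past the test). With stroke over both pressures 9 of 10 rose, where 25.8% of all genes were called in either direction. Olfactory bulb markers, 9 genes, summed to 265 to 420, 361 to 975.3, 339 to 1119 and 199 to 733 CPM. All 9 were higher in HT + Sham than in NT + Sham (median 1.11, none past the test). Of these, 8 had an unadjusted *P* under 0.05, against 8.03% of all genes. In NT + Stroke vs NT + Sham 6 of 9 bulb markers were called higher, where 25.9% of all genes were called in either direction. Macrophage markers, 7 genes, summed to 16.1 to 25.3, 130 to 651, 21.3 to 181 and 34.4 to 742 CPM. In NT + Stroke vs NT + Sham 5 of them rose, where 25.9% of all genes were called in either direction. With scores of the striatal and bulb lists as covariates no member was called in any comparison. The share of all genes called in these fits is not given here, so the loss of calls was not shown to be particular to the members. *Npas4* then had −0.56 in HT + Stroke vs HT + Sham (adjusted *P* = 0.610), and *Fos*, *Nr4a1* and *Dusp1* had −1.25, −0.85 and −0.76 in HT + Stroke vs NT + Sham (adjusted *P* 0.429 to 0.461). The part of region and of cell makeup in the members' levels was not tested beyond this fit.

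**Figure D4:**
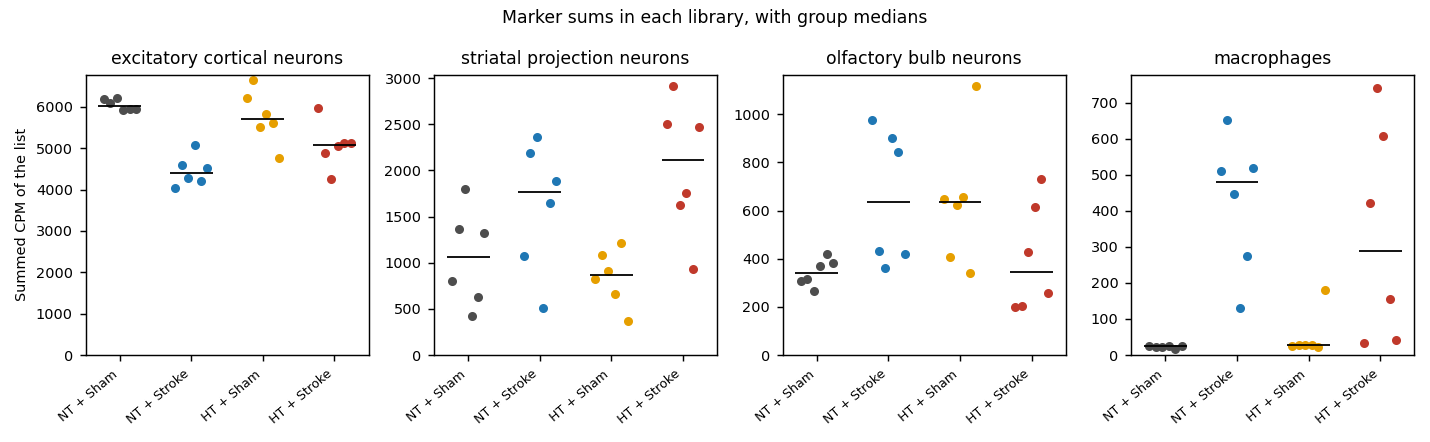
Summed CPM (linear axes from 0) of 4 marker lists in each library, with group medians as lines. Striatal and bulb sums spread widely within groups, cortical sums are lowest in NT + Stroke, and libraries 1 and 6 of HT + Stroke lie near the sham level of macrophage markers.

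Lists for stress and time of day were counted as well. Of 6 heat shock genes 3 fell in NT + Stroke vs NT + Sham, against 11.5% of all genes called lower, *Hsp90aa1* by 0.27. In HT + Stroke vs NT + Sham 4 fell, against 6.37%, *Hsp90aa1* by 0.35. Of 8 glucocorticoid response genes *Cdkn1a* alone passed a test in these comparisons of 2 groups, rising by 0.48 (SE 0.113) in NT + Stroke vs NT + Sham. No clock output gene of 9 passed in any of them.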

How the data were processed

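The authors deposited 4 tables, 1 for each of 4 comparisons, with raw counts per gene, not normalized, and FPKM values that the authors made by dividing counts by gene length and library size. Reads were mapped to the Ensembl mouse genome, and featureCounts 1.5.0-p3 and DESeq2 1.20.0 are named in the submitters' processing notes. The aligner and build are not given in the sources used here, and gene positions match GRCm38. The tables also hold the authors' fold changes and P values, which were not used, nor were 48 columns of normalized counts. Tables were joined by gene identifier, and the 24 count and 24 FPKM columns that occur more than once were identical.

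Counts were tested in R 4.3.3 with edgeR 4.0.16 (robust quasi-likelihood, two-sided) on the libraries compared, or on all 4 groups for the interaction and the effects over both treatments. Genes were kept by filterByExpr (minimum count 10, total 15), libraries were scaled by TMM, and log2 CPM used a prior count of 2. The interval of a fold change is at 95%. Alternatives were DESeq2 1.42.0, limma 3.58.1 on log2 FPKM, other filters and scalings, a replicate block, region scores as covariates, and each library left out. The 10 members, gene lists and most alternatives were chosen with earlier results of these data known. All members were named in each comparison, and from other lists at most the 4 genes with the smallest P, called genes first. Genes most like the members were the 5 highest and 3 lowest by Pearson r, of which 1 is not reported here. Counts limit precision for *Egr2*, and no sequencing batch is labelled.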

Additional observations from a re-analysis of the deposited data

Results flagged for a closer look

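Of 40 groups of 6 values, 10 members in 4 groups, 7 held a library far from the nearest other library relative to the range of the group (Dixon's test at 95%). Chance gives about 1 in 20 if values are normally distributed, and the test was run on CPM without logarithms. Whether 7 of 40 is more than chance gives was therefore not shown. Library 3 of NT + Sham was far above its group for *Fos* (30.1 CPM) and *Junb* (180 CPM), and library 2 of HT + Sham for *Junb* (118 CPM) and *Egr4* (72.3 CPM). Library 2 of NT + Stroke was far above its group for *Junb* (101 CPM) and *Egr1* (247 CPM), and library 1 of HT + Stroke for *Arc* (124 CPM). All 7 were high values, and they fell in 4 libraries, 1 in each group. The members share these libraries, so the 7 are not independent. Library 3 of NT + Sham also had the highest summed striatal markers of its group (1804 CPM), and library 1 of HT + Stroke the lowest macrophage markers (34.4 CPM), whose part was not tested.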

How the results depend on the processing

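All 35 differences of members with an unadjusted P under 0.1 kept their direction under every alternative run. Of the other 45, 22 changed sign under at least 1 alternative and none became called. The number of members called moved by over 1.5 times as follows. In HT + Stroke vs HT + Sham (1 called) it was 4 with DESeq2, 2 with all 4 groups in 1 fit, 0 with limma at either pseudocount (1 or 0.1), 0 with the replicate block, 0 with region scores as covariates, 0 without both high sham libraries, 3 without the libraries of unusual macrophage markers, and 0 to 3 with 1 library left out (0 without library 2, 3 or 4 of HT + Sham or 2 or 4 of HT + Stroke, 3 without library 1 of HT + Stroke). In HT + Stroke vs NT + Sham (3 called) it was 5 with DESeq2, 1 with limma at either pseudocount, 0 with all genes of at least 1 count (more genes tested), 0 with region scores, 1 without both high sham libraries, and 1 to 5 with 1 library left out (1 without library 1, 2, 3 or 5 of NT + Sham or 2, 4, 5 or 6 of HT + Stroke, 5 without library 1 of HT + Stroke). Over both pressures (2 called) it was 5 with DESeq2, 4 with the replicate block, 0 with region scores, 5 without the libraries of unusual macrophage markers, and 2 to 5 with 1 library left out (4 or 5 without library 6 of NT + Sham, 2 of NT + Stroke, 4 of HT + Sham or 1 of HT + Stroke). In NT + Stroke vs NT + Sham (0 called) it was 1 with the replicate block, *Egr4*. With an unadjusted P under 0.05 the counts were 1 in NT + Stroke vs NT + Sham, 3 in HT + Stroke vs NT + Stroke, 5 in HT + Stroke vs HT + Sham, 7 in HT + Stroke vs NT + Sham, 8 for stroke over both pressures, 1 for the interaction and 1 for angiotensin II over both surgeries, against 36.0%, 7.23%, 17.0%, 29.6%, 36.2%, 10.4% and 4.41% of all genes in that order. Shares of all genes called under the alternatives are not given here, so the moved counts do not set the members apart from other genes. The cause of these moves was otherwise not tested. Library numbers were shared between groups without a stated pairing. Deviations of libraries with the same number had correlations of −0.49 to 0.36 in 36 pairs, of which 16 were over 0.1, and 12 were best with their own number. This is a hint from the data and not from the design, and the block was kept as an alternative because not every pair was over 0.1. In HT + Stroke vs NT + Sham the block gave 2 called, as did library size alone. Leaving out both high sham libraries and leaving out the libraries of unusual macrophage markers were chosen after the data were seen. A comparison of 2 groups lost only those of these libraries that belong to its groups. Leaving out the high sham libraries was thus the fit without library 2 of HT + Sham in HT + Stroke vs HT + Sham. In HT + Stroke vs NT + Sham it was the fit without library 3 of NT + Sham, so neither adds to the fits with 1 library left out. Depth limits *Egr2*, at 14 to 96 counts per library.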
